A study of Homo sapiens with 6 samples.

Results

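Collagen chain genes were followed in SNU-387, an established human liver cancer cell line, after a hairpin RNA against the tyrosine kinase gene YES1 was stably expressed. The members are all protein-coding genes whose symbol reads COL, a number, A and a number, 44 of the 58219 gene identifiers counted, with antisense and pseudogene names left out. Of these 44 genes, 28 had enough reads to test. The libraries form 2 groups of 3. In the shNT group the cells carry a hairpin that targets no gene, and in the shYES1 group they carry the YES1 hairpin. Both groups are stable lines of the same pleomorphic hepatocellular carcinoma cells, and poly(A) RNA was sequenced with strand information. The labels name neither the hairpin sequence nor separate cultures or clones, so p-values measure only the spread between these libraries, which may be technical.

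Collagens are secreted proteins in which 3 chains wind into a triple helix made of glycine-led repeats. Fibrillar collagens form the ropes of connective tissue, type IV collagens form the sheet of basement membranes, and the other classes coat fibrils, anchor membranes, make beaded filaments or span the cell surface. In liver, fibrillar collagen is the main substance of scar tissue, which is made largely by stellate cells and fibroblasts. A poly(A) measurement gives transcript levels and not secreted protein. In bulk RNA, fewer cells of a type and less RNA per cell cannot be told apart.

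Gene reads came to at least 11290889 and at most 18944148 in a library. YES1 stood at 178 to 181 CPM (read counts normalised to the scaled size of the library) in shNT and at 42.9 to 46.0 CPM in shYES1, so the targeted gene was lower in every library labelled shYES1. Hepatocyte markers were mostly near 0: of 9 listed genes, only SERPINA1 and TF reached 1 CPM in every library, TTR and HNF4A had no read, and the highest ALB value was 0.0855 CPM (sums of 20.7 to 24.0 CPM in shNT and 19.8 to 22.1 CPM in shYES1). Of 5 epithelial markers, KRT8 and KRT18 did so, and the summed level was 764 to 774 CPM in shNT and 1070 to 1091 CPM in shYES1. All 4 markers of mesenchymal-type tumour cells did so, with sums, mostly FN1, of 25640 to 28290 CPM in shNT and 16620 to 16800 CPM in shYES1. FN1, VIM and ZEB1 fell, and CDH2 rose from 542 ± 3.54 to 707 ± 9.81 CPM (SD, n = 3). Of 9 listed fibroblast and stellate cell markers 5 reached 1 CPM in every library, and their summed level was 436 to 469 CPM in shNT and 225 to 239 CPM in shYES1, most of it from LUM and DCN. Within that list LUM, DCN and ACTA2 fell, PDGFRB rose from 10.6 ± 1.28 to 26.8 ± 0.934 CPM (SD, n = 3), and RGS5 was not called at 2.71 ± 0.533 and 2.79 ± 0.647 CPM. Of 5 endothelial markers 2 reached 1 CPM in every library, PECAM1 and CDH5, with sums of 25.6 to 27.1 CPM in shNT and 25.6 to 26.1 CPM in shYES1. PECAM1 fell from 13.9 ± 0.525 to 11.2 ± 0.630 CPM (SD, n = 3), and CDH5 was not called. The low markers VWF (mean 0.351 to 1.44 CPM) and TEK (1.07 to 2.49 CPM) rose. None of 4 leukocyte markers reached 1 CPM in every library, CD3E had no read, and their sums were 0.151 to 1.13 CPM. The part of these markers in the results on collagens was not tested.

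The most expressed chain genes were those of type I and type VI collagen in both groups. Collagen chain genes took 1.71%, 1.72% and 1.62% of gene reads in the shNT libraries, in the order of their sample numbers. In the shYES1 libraries they took 1.804%, 1.86% and 1.85%, so their share of unscaled reads was slightly higher, without overlap. With scaling by library size alone, the middle log2 change over all 14239 tested genes was 0.0921, against -0.00469 with TMM scaling. Whether the summed collagen level also rose in scaled CPM was not tested. The 5 most read chain genes, COL1A2, COL6A3, COL1A1, COL6A1 and COL5A1, held 67.6% to 68.0% of collagen reads in shNT and 70.2% to 70.5% in shYES1. Per kb of transcript, COL1A2, which encodes the second chain of type I collagen, was highest at 802 ± 29.9 CPM per kb in shNT (SD, n = 3). The type VI genes COL6A1 (343 ± 5.55), COL6A2 (323 ± 6.14) and COL6A3 (286 ± 14.9 CPM per kb) came next, followed by COL1A1 at 220.2 ± 3.22 and COL5A1 at 173 ± 7.09 CPM per kb. The intervals of COL6A1 and COL6A2 lay close together, while COL1A2 stood far above every other chain. With the union of all annotated exons as the length in place of the transcript with the longest coding sequence, these 6 kept their order, although COL1A2 was then at 389 CPM per kb. The most expressed basement membrane chain, COL4A1, stood at 80.2 ± 1.44 CPM per kb.

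**Figure D1:**
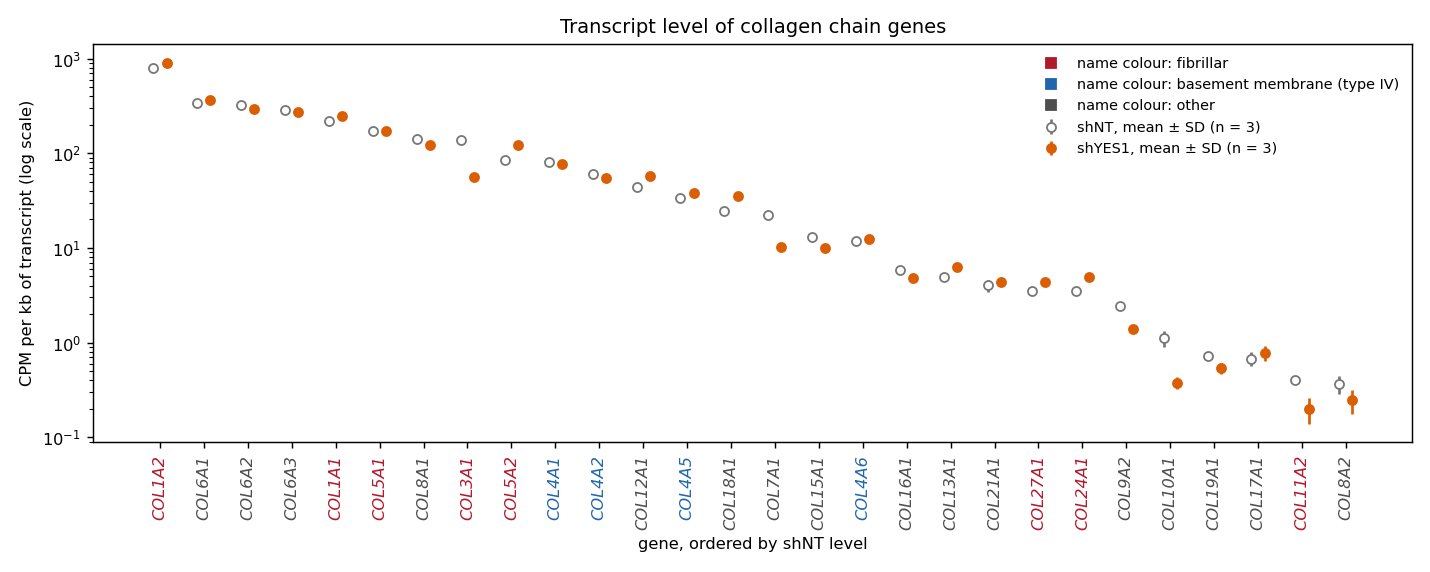
Level of the 28 tested collagen chain genes in CPM per kb of transcript on a log scale, as mean ± SD of 3 libraries per group, ordered by the shNT level. COL1A2 stands at the top with 802 CPM per kb in shNT, and COL3A1 drops from 138 to 56.6 CPM per kb between the groups while COL5A2 rises from 85.0 to 121 CPM per kb.

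The other 16 chain genes were too low to test, each below 0.9 CPM in every library. COL25A1, a membrane collagen of neurons, reached at most 0.889 CPM, COL9A3 0.730, COL14A1 0.727, COL5A3 0.697, COL4A4 0.444, COL11A1 0.378, COL4A3 0.162 and COL28A1 0.122 CPM. COL2A1, the cartilage collagen, had 1 read in all 6 libraries together, as had COL6A5, COL23A1 and COL26A1. COL6A6, COL9A1, COL20A1 and COL22A1 had no read, which allows up to 0.0337 CPM over the 6 libraries (3 counts, counting error only). The low levels thus cover the kidney and cochlea type IV chains COL4A3 and COL4A4 and the cartilage chains COL2A1, COL9A1 and COL11A1.

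Between shYES1 and shNT, collagen chain genes moved in both directions and mostly by little. Of the 28 tested, 11 were higher, 13 lower and 4 did not pass an edgeR adjusted p of 0.05. Their median log2 fold change was -0.04. That median was 0.03 without shNT sample 1. It was 0.06 with library-size scaling alone, which moved the median of all genes to 0.09, and -0.13 with scaling on genes whose 3' UTR lacks the sequence CCTTTC, which moved it to -0.10. Across all 14239 genes tested, 65.3% passed, 32.5% higher and 32.8% lower, with a median of -0.00469. The groups did not overlap for 22 of the 28 chain genes, beside 67.9% of all genes. The 5 largest changes among the 28 were all falls, of COL10A1, COL3A1, COL7A1, COL11A2 and COL9A2. Of these, COL10A1, COL11A2 and COL9A2 were low, reaching at most 4.56, 2.83 and 7.76 CPM in a library. Calls over all tested genes also leaned lower against a minimum change of 1.2-fold, with 2324 higher and 2861 lower. The largest rises, of COL18A1 and COL5A2, were 1.44-fold and 1.43-fold.

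**Figure D2:**
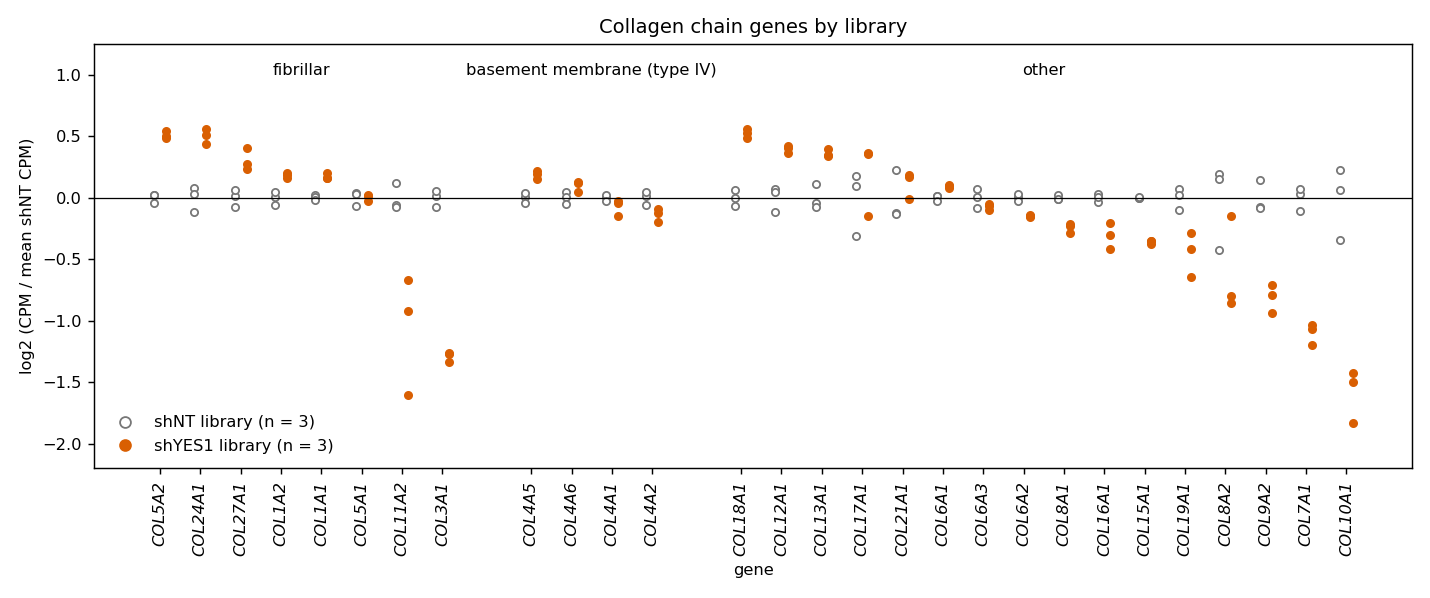
Level of each tested collagen chain gene in each library, as log2 of its CPM over the mean shNT CPM, with open points for the 3 shNT and filled points for the 3 shYES1 libraries, grouped by class. The shYES1 points of COL3A1, COL7A1 and COL10A1 lie at or below -1, and most other genes lie within 0.6 of the shNT mean.

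Among fibrillar chains, 8 of 11 were tested, 5 rose, 2 fell and COL5A1 did not pass (median log2 fold change 0.18). Of the type IV chains of basement membranes, 4 of 6 were tested, and 2 rose and 2 fell with a median of 0.01. In the remaining classes, 16 of 27 were tested, 4 rose, 9 fell and 3 did not pass, with a median of -0.20. Under library-size scaling and under scaling on CCTTTC-free genes the fibrillar median stayed above 0 (0.27 and 0.08), the type IV median was 0.11 and -0.09, and that of the remaining classes stayed below 0 (-0.10 and -0.30). Without a low-count filter, which adds chains with few reads, the type IV median was -0.09 and that of the remaining classes turned to 0.11. The difference between the classes was not tested. With COL7A1, COL15A1 and COL18A1 counted as basement membrane genes, that class had 3 higher and 4 lower of 7 and a median of -0.07.

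COL3A1 (ENSG00000168542.14, GRCh38 chromosome 2, 188974320 to 189012746, plus strand) encodes the chain of type III collagen, which forms the fine reticular fibrils of liver and other soft tissues. It measured 776, 795 and 729 CPM in the shNT libraries and 318, 320.2 and 304 CPM in the shYES1 libraries. The highest shYES1 value was thus far under the lowest shNT value. COL3A1 fell by 1.29 on the log2 scale (SE 0.0282, edgeR adjusted p = 8.37e-37), or 2.44-fold. A microRNA gene, MIR3606, is annotated on the same strand over its exons, where reads could be lost as ambiguous.

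Next to it, 19149 bases beyond its 3' end, lies COL5A2 (chromosome 2, 189031896 to 189225312, minus strand), which encodes the second chain of type V collagen, a regulator of fibril diameter. COL5A2 measured 612, 612 and 583 CPM in shNT and 844, 878 and 855 CPM in shYES1, again with no overlap. It rose by 0.51 on the log2 scale (SE 0.0252, edgeR adjusted p = 6.82e-23). The genes lie tail to tail, and their transcripts changed in opposite directions. COL5A1, the partner of COL5A2 in type V trimers, stayed between 1398 and 1505 CPM in shNT and between 1442 and 1487 CPM in shYES1. Its groups overlapped, with a log2 fold change of 0.00 (SE 0.0255) that did not pass (edgeR adjusted p = 0.906). The direction of COL5A1 depended on the scaling: it was called higher with library-size scaling (0.10, edgeR adjusted p = 0.000755). It was called lower with scaling on CCTTTC-free genes (-0.10, edgeR adjusted p = 0.00117), and CCTTTC had been picked out earlier on these data. The median log2 change of all genes moved likewise under these scalings, to 0.0921 and -0.103.

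The type I genes rose slightly and together. COL1A2 measured 4363, 4484 and 4164 CPM in shNT and 4857, 4917 and 4977 CPM in shYES1, a log2 fold change of 0.18 (SE 0.0244, edgeR adjusted p = 8.96e-09). COL1A1, whose product supplies 2 of the 3 chains of the usual type I trimer, measured 1502, 1484 and 1459 CPM in shNT and 1651, 1699 and 1659 CPM in shYES1 (0.17, adjusted p = 1.19e-08). Neither gene's groups overlapped, but these rises were under 1.2-fold, and a test against a minimum change of that size called neither. Type III and type I collagen thus differed in direction within the fibrils' main components.

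Of the lesser fibrillar chains, COL24A1 measured 25.0, 24.3 and 22.0 CPM in shNT and 33.9, 35.0 and 32.2 CPM in shYES1 (log2 fold change 0.50, SE 0.0615). COL27A1, which like COL24A1 belongs to the group of fibrillar chains with a shortened or broken helix, measured 27.8, 26.1 and 28.8 CPM in shNT and 32.3, 33.4 and 36.4 CPM in shYES1 (0.31, SE 0.0599). Both were higher in every shYES1 library. COL11A2, a chain of cartilage type XI collagen, was near the limit of testing, with 2.47 to 2.83 CPM in shNT and 0.852 to 1.63 CPM in shYES1 (-0.99, SE 0.231, edgeR adjusted p = 0.000216).

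Type IV collagen genes changed by at most 1.14-fold. COL4A1, of chromosome 13, measured 533, 539 and 520.4 CPM in shNT and 479, 520.4 and 514 CPM in shYES1 (log2 fold change -0.07, SE 0.0269, edgeR adjusted p = 0.0146), and the highest shYES1 and lowest shNT values practically met. That call was lost without shNT sample 2 (-0.06, edgeR adjusted p = 0.0517), without shYES1 sample 1 (-0.04, edgeR adjusted p = 0.269), with DESeq2 (adjusted p = 0.0610) and without a low-count filter. COL4A2, its partner in the ubiquitous type IV trimer, measured 397, 407 and 377 CPM in shNT and 344, 370.3 and 361 CPM in shYES1 (-0.14, edgeR adjusted p = 4.39e-05). With library-size scaling alone, COL4A1 turned to 0.02 and COL4A2 lost its call at -0.04.

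On the X chromosome, COL4A5 measured 218, 223 and 211 CPM in shNT and 241, 248 and 252 CPM in shYES1 (log2 fold change 0.19, SE 0.0289, edgeR adjusted p = 1.88e-07). COL4A6 measured 82.1, 79.7 and 76.5 CPM in shNT and 86.9, 86.2 and 81.8 CPM in shYES1 (0.10, adjusted p = 0.0273), with groups that overlapped. Its call was lost with DESeq2 (DESeq2 adjusted p = 0.1004). It was also lost without shNT sample 3 (edgeR adjusted p = 0.179), shYES1 sample 1 (edgeR adjusted p = 0.119) or shYES1 sample 2 (edgeR adjusted p = 0.0741). The chromosome 13 pair was thus slightly lower and the X chromosome pair slightly higher, except that COL4A1 turned with library-size scaling and COL4A6 stood at 0.00 with scaling on CCTTTC-free genes.

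The type IV genes sit in head-to-head pairs, each pair read outward from a shared control region. For COL4A1 and COL4A2 the RefSeq starts (GRCh38.p14) are 127 bases apart, and the stretch between them is shown because the genes start at its opposite ends. It lies at chr13:110307158-110307283 and is written in the sense of COL4A2, with matches to the GC box (GGGCGG) and the CCAAT box (CCAAT) on either strand in capitals.
COL4A1/COL4A2: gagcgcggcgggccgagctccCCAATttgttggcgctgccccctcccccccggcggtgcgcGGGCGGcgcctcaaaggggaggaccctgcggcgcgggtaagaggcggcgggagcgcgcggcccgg
The stretch is 80.2% G and C, holds 1 GC box and 1 CCAAT box and no TATA box (TATAAA). Of 35116 stretches of the same length before RefSeq starts, 34.6% hold a GC box, 21.1% a CCAAT box and 5.9% a TATA box. In the GENCODE annotation COL4A4 and COL4A3 are 111 bases apart and COL4A6 and COL4A5 346 bases apart, in the same layout. In each tested pair both genes had the same sign of change under TMM scaling.

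Beaded filament, anchoring and network collagens mostly fell. COL7A1 (ENSG00000114270.17, chromosome 3, 48564073 to 48595267, minus strand) encodes type VII collagen, which anchors basement membranes to the tissue below. It measured 208, 215 and 189.8 CPM in shNT and 88.9, 99.8 and 97.4 CPM in shYES1, and no library of either group came near the other. COL7A1 fell by 1.10 on the log2 scale (SE 0.0445, edgeR adjusted p = 1.16e-15), or 2.14-fold. MIR711 is annotated on the same strand over its exons.

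The 250 bases before the RefSeq start are shown for COL7A1 and COL12A1. COL7A1 fell most among the chains above 5 CPM that were matched in the promoter table. COL12A1 rose, though less than COL18A1 and COL24A1, which were also matched. The stretches lie at chr3:48595330-48595579 and chr6:75206054-75206303 (GRCh38.p14, minus strand), with GC, CCAAT and TATA boxes on either strand in capitals.
COL7A1: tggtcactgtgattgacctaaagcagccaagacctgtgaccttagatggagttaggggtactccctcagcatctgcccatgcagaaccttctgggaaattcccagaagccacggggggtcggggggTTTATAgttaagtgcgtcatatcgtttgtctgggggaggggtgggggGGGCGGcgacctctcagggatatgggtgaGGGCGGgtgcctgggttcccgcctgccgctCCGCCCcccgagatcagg
COL12A1: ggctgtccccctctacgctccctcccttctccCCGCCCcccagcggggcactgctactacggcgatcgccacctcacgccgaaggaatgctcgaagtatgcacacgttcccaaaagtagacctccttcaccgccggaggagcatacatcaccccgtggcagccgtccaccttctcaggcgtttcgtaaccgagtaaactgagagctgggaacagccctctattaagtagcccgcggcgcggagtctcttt
The COL7A1 stretch holds 3 GC boxes and 1 TATA box, and the COL12A1 stretch 1 GC box, neither with a CCAAT box. COL18A1, which rose more than COL12A1, has both a GC box and a TATA box before its listed starts. Among all 35116 stretches of 250 bases, 42.6% hold a GC box, 32.0% a CCAAT box and 10.7% a TATA box. Of the 28 tested chain genes, 22 were matched in the promoter table, and 16, 7 and 6 of those 22 hold these motifs. A chain gene with several listed starts was counted if any of its stretches held the motif. The shares above count each stretch singly and are not limited to tested genes, so the figures cannot be compared directly. COL1A1, COL1A2, COL3A1, COL5A2, COL6A1 and COL8A1 were not matched. These matches describe letters and show no binding.

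COL12A1, which coats type I fibrils and links them to other matrix, measured 536, 526 and 469.5 CPM in shNT and 658, 683 and 674 CPM in shYES1. It rose by 0.40 on the log2 scale (SE 0.039, edgeR adjusted p = 2.76e-07), and the groups did not overlap. Other fibril-coating (FACIT) chains went down or did not pass. COL16A1 measured 33.0, 34.7 and 34.0 CPM in shNT and 25.3, 27.4 and 29.4 CPM in shYES1 (log2 fold change -0.30), and COL9A2, of cartilage, 7.76, 6.66 and 6.59 CPM in shNT and 3.65, 4.28 and 4.04 CPM in shYES1 (-0.81). Both were lower in each shYES1 library than in any shNT library. COL19A1 fell from 4.54 ± 0.268 to 3.35 ± 0.414 CPM (SD, n = 3, -0.40). COL21A1 was not called, with 16.1, 20.5 and 15.97 CPM in shNT and 19.9, 19.7 and 17.4 CPM in shYES1 (0.11, edgeR adjusted p = 0.247). COL21A1 was called higher without shNT sample 2 (0.23, edgeR adjusted p = 0.0174) and with library-size scaling (0.21, edgeR adjusted p = 0.0262). The COL19A1 call was lost with DESeq2, with library-size scaling, without shNT sample 1 (log2 fold change -0.37, edgeR adjusted p = 0.0548) and without shYES1 sample 2 (-0.33, edgeR adjusted p = 0.0757).

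Type VI collagen, which forms beaded filaments around cells, changed by at most 1.11-fold. COL6A1 measured 1468, 1464 and 1426 CPM in shNT and 1562, 1537 and 1548 CPM in shYES1 (log2 fold change 0.09, edgeR adjusted p = 0.00052). COL6A2, its neighbour on chromosome 21 and partner in the trimer, went from 1118, 1138 and 1095 CPM to 1005, 1012 and 1001 CPM (-0.15, edgeR adjusted p = 2.7e-07). The COL6A1 and COL6A2 groups were separate and moved in opposite directions, although COL6A1 stood at -0.01 with scaling on CCTTTC-free genes. COL6A3, the longest of the type VI chains measured here, overlapped between groups, with 2902 to 3222 CPM in shNT and 2862 to 2955 CPM in shYES1 (-0.07, edgeR adjusted p = 0.0133). The COL6A3 call was lost without shNT sample 1 (-0.04, edgeR adjusted p = 0.157) and without shYES1 sample 1 (-0.06, edgeR adjusted p = 0.102). It was also lost without a low-count filter (-0.06, edgeR adjusted p = 0.0694), and library-size scaling turned COL6A3 to 0.02 (edgeR adjusted p = 0.486).

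COL8A1, a short-chain network collagen of vessel walls, measured 813, 828 and 811 CPM in shNT and 671, 695 and 705 CPM in shYES1 and fell by 0.24 on the log2 scale (SE 0.0245). Its partner COL8A2 stood at only 1.27 to 1.94 CPM in shNT and 0.941 to 1.53 CPM in shYES1 and was not called (-0.48, edgeR adjusted p = 0.106). COL8A2 was called lower without shYES1 sample 3 (-0.79, edgeR adjusted p = 0.0325) and without shNT sample 3 (-0.68, edgeR adjusted p = 0.0389). COL10A1, the network collagen of hypertrophic cartilage, was low in both groups, with 3.07, 4.09 and 4.56 CPM in shNT and 1.10, 1.45 and 1.38 CPM in shYES1. Its fall of 1.60 on the log2 scale (SE 0.207, edgeR adjusted p = 3.38e-09) was the largest of the 28, and rests on 226 reads over the 6 libraries.

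The multiplexins of the basement membrane zone, collagens with an interrupted helix, parted. COL18A1, whose C-terminal end can be released as endostatin, measured 160.3, 168 and 153 CPM in shNT and 232, 225 and 236 CPM in shYES1 (log2 fold change 0.53, SE 0.0312, edgeR adjusted p = 6.43e-20). COL15A1, the other multiplexin, measured 71.2, 71.0 and 71.7 CPM in shNT and 55.7, 55.9 and 55.0 CPM in shYES1 (-0.36, SE 0.0413, edgeR adjusted p = 1.21e-10). Neither gene's groups overlapped. Of the membrane-spanning chains, COL13A1 measured 16.8, 15.1 and 14.8 CPM in shNT and 19.8, 20.5 and 19.7 CPM in shYES1 and rose (0.36). COL17A1, of hemidesmosomes, was not called at 3.86 ± 0.668 and 4.46 ± 0.850 CPM (SD, n = 3, edgeR adjusted p = 0.372).

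Chains that assemble into a trimer were compared within each library, a ratio that no scaling of libraries can move. The ratio of COL1A1 to COL1A2, in reads per kb, was 0.275 in shNT and 0.273 in shYES1, a difference of -0.01 on the log2 scale with an SD of 0.0423 in shNT and 0.0259 in shYES1. COL5A1 to COL5A2 went from 2.04 to 1.43, a log2 difference of -0.51, with every shYES1 library below every shNT library. COL6A1 to COL6A2 went from 1.06 to 1.26 (log2 difference 0.24), and COL6A3 to COL6A1 from 0.833 to 0.742 (-0.17), both without overlap. The type V and type VI ratios thus had separate groups of libraries, while those of the type I ratio overlapped.

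For COL4A1 to COL4A2 the ratio was 1.32 in shNT and 1.38 in shYES1 (log2 difference 0.06, no overlap). COL4A5 to COL4A6 gave 2.85 and 3.03 (0.09, overlapping), and COL8A1 to COL8A2 gave 401 and 504.5 (0.33, overlapping, with few COL8A2 reads). Of the 7 pairs in which both genes were tested, 4 gave an exact two-sided permutation p of 0.1, the smallest that 3 against 3 libraries allow. Adjusted over the 7 pairs, the exact permutation p was 0.175 for those 4 and 0.8 for the type I pair. None passes 0.05, and the design could not pass it.

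**Figure D3:**
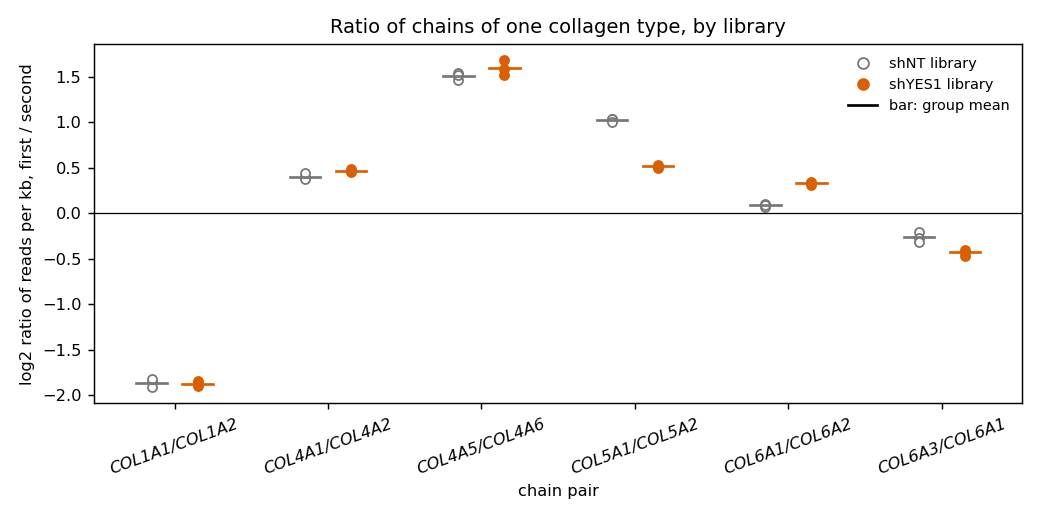
Log2 ratio of reads per kb between chains of one collagen type in each library, for 6 of the 7 tested pairs, with bars at the group means. The COL5A1/COL5A2 ratio drops from a mean of 1.02 to 0.52 and the COL1A1/COL1A2 ratio lies near -1.86 in shNT and -1.87 in shYES1.

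Many collagen transcripts carry matches to the seed of the miR-29 family, a set of small RNAs known for lowering collagen transcripts. The mature forms are shown with the seed (bases 2 to 8) in capitals, from RefSeq (GRCh38.p14), since they share it.
hsa-miR-29a-3p: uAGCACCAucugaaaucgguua
hsa-miR-29b-3p: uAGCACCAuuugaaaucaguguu
hsa-miR-29c-3p: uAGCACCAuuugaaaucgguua
The matching sequence, TGGTGCT, was present in an annotated 3' UTR of 19 of the 28 tested chain genes (67.9%), beside 22.8% of 11968 tested genes with an annotated 3' UTR of at least 50 bases. The median of the longest 3' UTR per gene was 1357 bases for the chain genes and 1659 bases for all.

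Sites of chains that changed in different ways are shown in transcript sense, with the match in capitals (GENCODE 29, GRCh38). They lie at chr2:189012001-189012023 (plus strand) in COL3A1 and at chr2:189032873-189032895 (minus strand) in COL5A2. Those of COL1A2 and COL7A1 lie at chr7:94430898-94430920 (plus strand) and at chr3:48564322-48564344 (minus strand). COL3A1 and COL7A1 each hold a further match that is not shown, at chr2:189012441-189012463 and at chr3:48564109-48564131.
COL3A1: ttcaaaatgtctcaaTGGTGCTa
COL5A2: tttttcctttaatgaTGGTGCTa
COL1A2: cttgaagaatgttgaTGGTGCTa
COL7A1: cactgtccctcccctTGGTGCTa
Chain genes with a match went both ways, 7 higher and 10 lower of 19 (median log2 fold change -0.07), and those without gave 4 higher and 3 lower of 9 with a median of 0.09. Over all tested genes, 1072 were higher and 960 lower with a match (median 0.03), and 3307 higher and 3160 lower without (0.02). The miR-29 RNAs themselves were not measured. MIR29B2CHG, the annotated host gene of miR-29b-2 and miR-29c, went from 4.45 ± 0.144 to 3.05 ± 0.494 CPM (SD, n = 3, log2 fold change -0.57, edgeR adjusted p = 0.00205).

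The sequence CCTTTC in a 3' UTR, picked out earlier on these data, went with a slightly lower median change over all genes. Chain genes with it gave 3 higher and 8 lower of 13 with a median of -0.30, and those that lack it gave 8 higher and 5 lower of 15 with a median of 0.17. Over all tested genes, 1992 were higher and 2698 lower of 6364 with it (median -0.06), and 2387 higher and 1422 lower of 5604 without it (0.10). COL3A1 and COL10A1 hold the sequence, while COL7A1 and COL11A2, which also fell, do not. Its part in the collagen changes was not tested.

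Genes that fold, cut, link, bind and degrade collagen were counted from lists made from textbook functions. Of 25 tested genes of chain modification, folding and export, 14 fell, 5 rose and 6 did not pass (median -0.14), beside 32.8% of all tested genes lower and 32.5% higher. P4HA1, a catalytic subunit of prolyl 4-hydroxylase, fell by 2.29 on the log2 scale, P3H2, a prolyl 3-hydroxylase, by 1.60 and CRTAP, a partner of prolyl 3-hydroxylase, by 0.98. CREB3L1, a transcription factor for collagen genes (0.63), MIA3, which loads procollagen for export (0.59), and COLGALT1, a collagen galactosyltransferase (0.38), rose. SERPINH1, the collagen chaperone HSP47, was not called, at 540.1 ± 9.47 CPM in shNT and 552 ± 8.04 CPM in shYES1.

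Of 11 tested genes of propeptide removal and crosslinking, 4 rose and 3 fell (median 0.15). The called share of 63.6% was near the 65.3% of all tested genes. That median was 0.01 without shYES1 sample 1 and 0.31 without shYES1 sample 2. The crosslinking enzyme genes parted, with LOX at -2.01 and LOXL1 at -0.31 on the log2 scale against LOXL2 at 0.45 and LOXL4 at 0.36. The exons of LOXL2 overlap ENTPD4 on its strand. ADAMTS14, which trims the N-terminal propeptide, rose from 10.9 ± 0.689 to 23.1 ± 0.698 CPM (SD, n = 3, 1.07), and PCOLCE2, an enhancer of C-terminal trimming, rose (0.38).

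Among 8 tested collagen receptor genes 5 rose, 2 fell and ITGB1, the shared integrin beta subunit, did not pass (median 0.31), a called share of 87.5% beside 65.3% of all tested genes. ITGA10 rose from 3.34 ± 0.651 to 9.30 ± 0.700 CPM (SD, n = 3, 1.48), the receptor kinase gene DDR1 from 104 ± 2.70 to 173 ± 6.71 CPM (0.74) and ITGA2 from 655 ± 18.2 to 874 ± 17.5 CPM (0.42). ITGA1 (-0.59), whose exons overlap PELO, and MRC2, an uptake receptor for collagen (-0.43), fell.

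Of 10 tested genes of collagen degradation 6 fell, CTSL rose (0.54) and 3 did not pass (median -0.51, and -0.79 without shYES1 sample 2, where 11 were tested). The called share was 70.0%, near the 65.3% of all tested genes. MMP1 (-3.56) and MMP2 (-2.57) fell most among those with at least 5 CPM in a group, and FAP, a surface protease of activated fibroblasts, fell from 127 ± 3.57 to 55.4 ± 1.65 CPM (SD, n = 3, -1.19). Of 7 tested genes whose products bind or space fibrils 4 fell and 3 rose (median -0.42), so that all 7 passed, beside 65.3% of all tested genes. The small proteoglycan genes DCN (-1.43) and LUM (-1.12), which are also on the fibroblast marker list, and FN1 (-0.72) fell, and TNXB (0.99), whose exons overlap ATF6B, THBS2 (0.69) and THBS1 (0.63) rose.

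Across 16 other ways of scaling, filtering, testing or leaving out a library, 10 of the 24 called chain genes kept their call and direction wherever they were tested. COL3A1, COL7A1, COL10A1, COL11A2, COL9A2 and COL15A1 were lower, and COL5A2, COL18A1, COL24A1 and COL12A1 higher. The test against a minimum change of 1.2-fold alone set this number, since it called just those 10 of the 28 tested. Over all 14239 tested genes it called 2324 higher and 2861 lower. Under the other alternatives, only COL19A1, COL4A1, COL4A2, COL4A6, COL6A1 and COL6A3 lost a call.

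**Figure D4:**
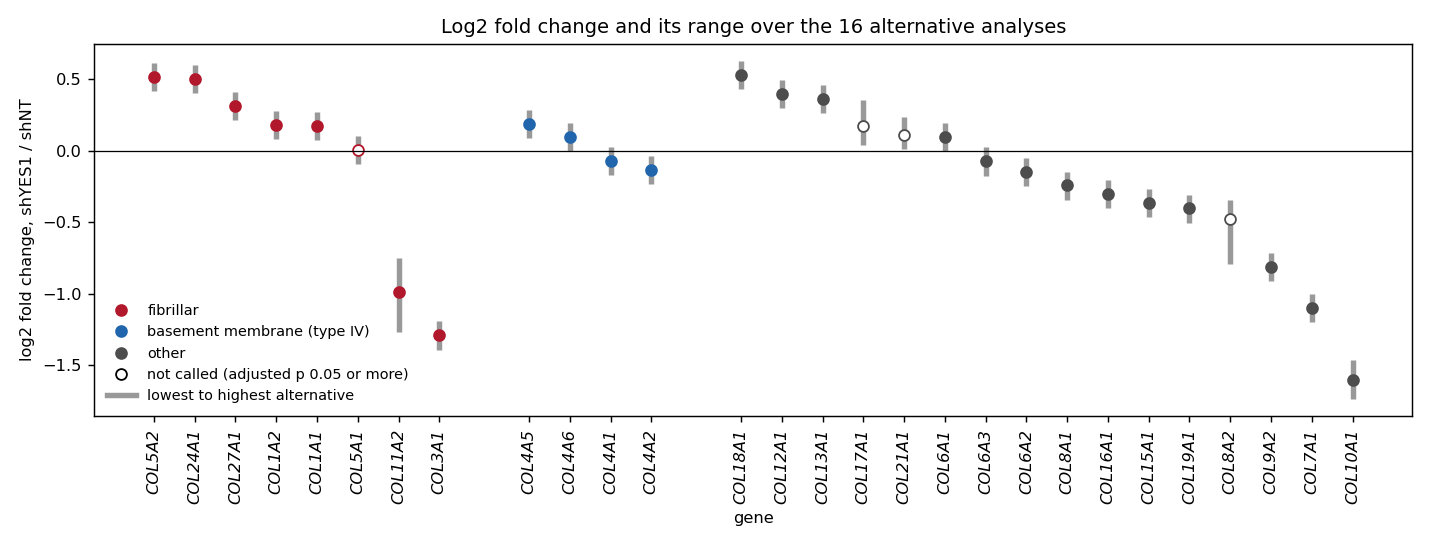
Log2 fold change of each tested collagen chain gene (points, coloured by class, open where not called) with the range of its values over the 16 alternatives (grey bars). The bars of COL3A1, COL7A1 and COL10A1 end at or below -1, while those of COL4A1, COL5A1 and COL6A3 cross 0. The bars of COL4A6 and COL6A1 reach just below 0.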

How the data were processed

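Poly(A) RNA of SNU-387 cells was sequenced in 3 libraries with a non-target hairpin and 3 with a YES1 hairpin. The deposited values are raw read counts per gene, of which the reverse-strand column was used. That column held 93.5% to 94.0% of the stranded gene reads. Per the submitters' processing notes, CASAVA 1.8.2, Trimmomatic 0.35 and STAR 2.5.1b were used with GRCh38, and no annotation release is named. Rows that name no gene, 19.8% to 20.3% of reads, were left out. Of 58219 identifiers 57437 had a current symbol and 57881 were in GENCODE 29, from which gene type, position and length were taken.

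Counts were fitted over all genes with edgeR 4.0.16 (R 4.3.3) by the quasi-likelihood test, after a filter at a minimum count of 10 and a total of 15 and TMM scaling, with Benjamini-Hochberg adjustment over 14239 genes and a threshold of 0.05. CPM are relative to the TMM-scaled library size. SEs were derived from the fold change and its F statistic. Ratios between chains were tested by an exact two-sided permutation test. The scripts were tested on simulated data. No pair of libraries agreed within sampling noise, and the depth of at least 11290889 gene reads with a biological coefficient of variation of 2.1% lets changes under 1.2-fold pass.

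The members and lists were chosen with earlier results of these data known. Every tested chain gene is named, those with at least 5 CPM in a group with each library's value. Of each other list up to 3 called rises and 3 called falls of at least 5 CPM are named, and LOXL4 besides these. Alternatives were RLE and library-size scaling, TMM on genes whose 3' UTR lacks CCTTTC, DESeq2 1.42.0, limma 3.58.1 with voom, other low-count filters, a replicate block, unstranded counts, a minimum change of 1.2-fold and leaving out each library.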

Additional observations from a re-analysis of the deposited data

How the results depend on the processing

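RLE scaling, limma-voom, a filter of 1 CPM in 3 libraries, unstranded counts and the replicate block kept all 24 calls of chain genes. The replicate block gave 11 higher and 13 lower chain genes and a median of -0.03, and changed no call of a chain gene. Deviations of same-numbered libraries had correlations of 0.0116, 0.0252 and 0.0122, beside -0.038 to 0.0248 for differently numbered ones, so no pairing by number was seen. Taken over all tested genes, many of them with few reads, these correlations cannot exclude a shared culture or batch. Gene reads of each library set a limit of 0.0337 CPM over all libraries for chains with no read.

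Against a minimum change of 1.2-fold, 4 of 28 chain genes were higher and 6 lower, beside 2324 higher and 2861 lower of all 14239 tested genes. Of the chain genes, 2 fibrillar ones were higher and 0 type IV ones were higher or lower. In the other classes 2 were higher and 4 lower. The folding list then had 9 lower and the processing list 1 lower. Library-size scaling turned COL6A3 (0.0225) and COL4A1 (0.0229) and called 5799 genes higher and 3762 lower, 60.7% higher. It gave medians of 0.0618 for chain genes, 0.27 fibrillar, 0.11 type IV (0 lower), -0.10 other classes, -0.0419 folding, 0.41 receptors, -0.42 degradation and -0.32 fibril partners. Scaling on genes whose 3' UTR lacks CCTTTC turned COL5A1 (-0.10), COL6A1 (-0.0067) and COL4A6 (-0.00197), and 37.7% of 3491 higher and 5771 lower calls were higher. Its medians were -0.13 for chain genes, 0.0771 fibrillar, -0.0877 type IV (1 higher), -0.30 other classes, -0.24 folding, 0.21 receptors, -0.61 degradation and -0.52 fibril partners, with 5 lower in the processing list. These shifts follow from the scaling factors themselves.

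DESeq2 left type IV with 1 higher and 1 lower and called 3946 genes higher and 4007 lower in all. Without a low-count filter, which adds chains with few reads, medians were 0.11 for chain genes, -0.0920 type IV, 0.11 other classes, 0.0159 processing, -0.86 degradation and -0.27 fibril partners. The folding median was -0.16 with limma-voom and -0.12 with unstranded counts. Unstranded, chain genes took 1.78% of gene reads in shNT and 1.93% in shYES1. With COL7A1, COL15A1 and COL18A1, the basement membrane class had 4 lower and a median of -0.0740, and other classes without them a median of -0.15.

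Leaving out each library in turn gave medians of -0.0603 to 0.0289 for chain genes, 0.16 to 0.19 fibrillar, -0.21 to -0.14 other classes, -0.17 to -0.12 folding, 0.0076 to 0.31 processing, 0.28 to 0.33 receptors, -0.79 to -0.51 degradation and -0.43 to -0.41 fibril partners. Type IV had 1 to 2 higher and 1 to 2 lower. COL5A1 ranged from -0.0312 to 0.0213 and turned without shNT sample 3 (-0.0312), shYES1 sample 2 (-0.00196) or shYES1 sample 3 (-0.00217). The cause of these changes was not tested.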
